A study of Rattus norvegicus with 18 samples.

Results

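The 10 genes described here, Cdk1, Ccnb1, Cdc20, Plk1, Kif20a, Aurka, Aurkb, Bub1, Top2a and Kif11, act in the G2 phase and in mitosis, and were taken by their symbols from the 32545 genes of the deposited table, where all 10 are present. Their mRNA was measured in 18 libraries of H9C2, a cell line derived from embryonic rat heart. All 6 groups of 3 libraries are of this line, and the labels give its cell type as myocardium. P cells had PE, a compound the labels do not spell out, at 50 µmol/L over 48 h. P-ES10 and P-ES50 cells had the same PE and then 10 or 50 electric pulses of 100 µs at 1500 V/cm. ES10 and ES50 cells had the 10 or 50 pulses without PE, and NC cells were not treated. The question of the series is what the pulses do to heart muscle cells and their mitochondria. Whether replicates are separate cultures is not given in the sources used here, so the spread behind the p-values may be technical.

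Entry into mitosis is driven by the kinase Cdk1 bound to a B-type cyclin, and Polo-like and Aurora kinases carry the cell through spindle assembly and chromosome alignment. The spindle checkpoint holds the anaphase-promoting complex, a ubiquitin ligase, until every chromosome is attached, after which cyclin B1 and securin are destroyed and the sister chromatids part. In cycling cells the mRNAs of these genes are low after division and rise towards G2, and in the adult heart, whose muscle cells rarely divide, most are nearly silent. H9C2 cells divide in culture, so the mRNAs can be measured in them without a stimulus.

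Levels are given in FPKM, a read density per length of gene and depth of library, from which 14004929 to 17247201 reads per library could be worked back. Mitochondrial genes took 5.48 ± 0.104% of the reads in P, 6.46 ± 0.377% in P-ES10 and 48.6 ± 1.66% in P-ES50 (SD, n = 3 each). Without PE they took 12.9 ± 1.21% in NC, 9.44 ± 0.319% in ES10 and 92.1 ± 0.728% in ES50. An ES50 library therefore held 1230554 to 1466851 nuclear reads, of which 1146 to 1467 fell on the 10 genes. The deposited FPKM hold the median gene nearly level between libraries, so each level below is relative to the other nuclear genes and not per cell. In these bulk libraries, fewer cells in mitosis and less mRNA per cell cannot be told apart. Of 12 cardiomyocyte markers, 4 or 5 averaged at least 1 FPKM in each group, and Myh6, Myh7, Actn2, Nkx2-5, Nppa, Ryr2 and Tbx5 did not pass the filter used for tests. The 5 endothelial markers in the table summed to at most 1.05 FPKM in any library, and Ptprc of leukocytes and Pax7 of muscle stem cells were at 0 in all 18 libraries. Other markers of those lists were measured. In NC the 6 leukocyte markers summed to 7.63 to 8.85 FPKM and the 8 skeletal myoblast markers to 41.9 to 43.9. The 7 fibroblast markers summed to 2380 to 2466 FPKM in NC.

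Many genes of this class are known to carry a CHR element and CCAAT boxes near their start, which bind the complexes that hold them off early in the cycle and turn them on in G2. The RefSeq promoter table (GRCr8, 250 bases before to 50 after the start) held 9 of the 10 genes, and Aurkb was not among them. The letters TTTGAA or TTCGAA for the CHR and CCAAT for the box were searched on both strands. A CHR match was present in 4 of the 9 windows (44.4%), against 46 of 64 for other mitotic genes (71.9%), 3 of 21 for S phase genes (14.3%) and 19.7% of all 33469 windows. CCAAT was present in 7 of the 9 (77.8%), against 71.9% for other mitotic genes, 66.7% for S phase genes and 37.5% of all windows. Both were present in Cdk1, Cdc20, Plk1 and Top2a, whose windows are printed for that reason, 5′ to 3′ on the gene's strand with the matches in capitals. They lie at chr20:19265043-19265342 (+) for Cdk1, chr5:137255750-137256049 (-) for Cdc20, chr1:186147408-186147707 (+) for Plk1 and chr10:84473044-84473343 (-) for Top2a.
Cdk1: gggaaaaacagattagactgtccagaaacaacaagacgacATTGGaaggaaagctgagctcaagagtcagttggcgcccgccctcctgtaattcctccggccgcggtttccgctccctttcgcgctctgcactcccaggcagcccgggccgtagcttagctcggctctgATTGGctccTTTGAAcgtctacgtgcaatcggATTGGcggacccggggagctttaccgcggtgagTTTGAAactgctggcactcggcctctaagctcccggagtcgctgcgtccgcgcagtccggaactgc
Cdc20: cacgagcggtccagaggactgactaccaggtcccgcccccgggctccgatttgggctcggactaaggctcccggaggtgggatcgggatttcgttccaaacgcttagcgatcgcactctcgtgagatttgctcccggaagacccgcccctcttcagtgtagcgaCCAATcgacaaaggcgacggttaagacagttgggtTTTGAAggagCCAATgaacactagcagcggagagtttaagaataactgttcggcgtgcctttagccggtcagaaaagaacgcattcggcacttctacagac
Plk1: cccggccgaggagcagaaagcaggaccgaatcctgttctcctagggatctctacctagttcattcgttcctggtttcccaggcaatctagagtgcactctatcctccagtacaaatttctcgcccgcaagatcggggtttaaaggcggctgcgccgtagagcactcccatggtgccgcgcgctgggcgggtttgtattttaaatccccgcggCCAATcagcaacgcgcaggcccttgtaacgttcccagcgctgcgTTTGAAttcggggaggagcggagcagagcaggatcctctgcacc
Top2a: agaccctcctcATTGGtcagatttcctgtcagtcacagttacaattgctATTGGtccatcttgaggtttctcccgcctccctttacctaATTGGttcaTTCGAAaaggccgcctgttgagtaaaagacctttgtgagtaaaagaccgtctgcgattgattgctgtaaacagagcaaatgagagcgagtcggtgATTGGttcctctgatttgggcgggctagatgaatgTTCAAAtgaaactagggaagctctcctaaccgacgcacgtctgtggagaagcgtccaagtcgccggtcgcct

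Cdk1 holds 2 CHR matches, which begin 72 and 16 bases before the start, and 3 CCAAT boxes read on the other strand as ATTGG. Cdc20 holds 1 CHR match, 51 bases before the start, between CCAAT boxes that begin 86 and 41 bases before it. In Plk1 the CCAAT box begins 38 bases before the start and the CHR match 7 bases after it. Top2a holds 2 CHR matches, read as TTCAAA and TTCGAA at 22 and 152 bases before the start, and 4 CCAAT boxes. No CHR match overlapped a CCAAT box in these 4 windows. A match says only that the letters are there.

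Cdk1, the kinase that starts mitosis, was the most abundant of the 10 per length, with a mean of 44.9 FPKM over the 18 libraries, and lies at chr20:20576377-20591549 (+) in Rnor 6.0, the build of the deposited table. It measured 48.0, 48.7 and 50.5 FPKM in P, 38.8, 37.7 and 37.8 in P-ES10, and 49.6, 49.0 and 44.3 in P-ES50. Without PE, Cdk1 measured 40.3, 40.9 and 40.8 FPKM in NC, 37.5, 36.9 and 37.7 in ES10, and 56.2, 54.7 and 59.1 in ES50. In order of the means ES10 was lowest, then P-ES10, NC, P-ES50, P and ES50, and of these neighbours only P and P-ES50 overlapped. Ccnb1 (chr2:30783915-30791221, -) encodes cyclin B1, the partner that activates Cdk1. Ccnb1 stood at 42.3, 43.1 and 44.1 FPKM in P, 33.9, 31.2 and 29.1 in P-ES10, and 43.4, 37.3 and 38.3 in P-ES50. Its values without PE were 39.8, 39.8 and 36.8 FPKM in NC, 31.1, 34.6 and 29.9 in ES10, and 28.1, 25.3 and 28.4 in ES50. The order differed from that of Cdk1 at its end, since ES50 was the lowest group for the cyclin and the highest for the kinase, and P-ES10 and ES10 overlapped, as did NC with P-ES50 and P-ES50 with P.

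Plk1 (chr1:192115966-192125989, +), the Polo-like kinase of mitotic entry and of the spindle, stood at 48.7, 43.3 and 42.9 FPKM in P, 29.2, 28.1 and 29.3 in P-ES10, and 40.8, 37.8 and 33.1 in P-ES50. Its 3 values were 36.8, 33.4 and 35.9 FPKM in NC, 31.4, 29.5 and 30.1 in ES10, and 34.8, 44.5 and 44.1 in ES50. P-ES10 was lowest and ES10 next, each apart from its neighbours, while NC, P-ES50, ES50 and P each overlapped the next. Aurka (chr3:170364181-170378210, -), the Aurora kinase of the spindle poles, measured 14.99, 14.5 and 14.8 FPKM in P, 12.1, 12.7 and 11.2 in P-ES10, and 15.2, 12.7 and 12.3 in P-ES50. It measured 13.1, 12.2 and 11.7 FPKM in NC, 11.8, 13.0 and 11.96 in ES10, and 13.6, 14.98 and 13.2 in ES50. Every pair of neighbours in its order overlapped, and the highest group mean was 1.23 times the lowest, the narrowest span of the 10. Aurkb (chr10:55626741-55634991, +), the kinase of the chromosomal passenger complex, which corrects faulty attachments, was the least abundant of the 10 at a mean of 6.92 FPKM. It stood at 7.80, 7.48 and 7.63 FPKM in P, 6.15, 6.29 and 6.14 in P-ES10, and 8.05, 6.77 and 6.95 in P-ES50. Aurkb had 5.87, 5.96 and 5.77 FPKM in NC, 5.05, 5.93 and 5.30 in ES10, and 9.62, 10.95 and 6.76 in ES50. The ES50 libraries spread from below P to well above it, and ES10 overlapped NC at the low end.

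Bub1 (chr3:120373604-120404910, -), a checkpoint kinase of the kinetochore, measured 9.75, 9.62 and 9.005 FPKM in P, 7.32, 7.77 and 7.67 in P-ES10, and 7.55, 8.01 and 8.22 in P-ES50. Without PE, Bub1 measured 8.28, 8.30 and 8.47 FPKM in NC, 7.20, 7.26 and 7.79 in ES10, and 6.22, 7.69 and 6.73 in ES50. P was apart from NC and NC from P-ES50, and the 4 groups with pulses followed with overlap. Cdc20 (chr5:137260728-137264931, -) encodes the activator that turns the anaphase-promoting complex on cyclin B1 and securin. Cdc20 stood at 30.4, 27.3 and 28.8 FPKM in P, 16.4, 15.5 and 16.5 in P-ES10, and 26.6, 23.5 and 20.7 in P-ES50. Its values were 23.8, 22.5 and 21.8 FPKM in NC, 16.3, 15.8 and 15.5 in ES10, and 22.6, 31.3 and 30.0 in ES50. ES10 and P-ES10 overlapped and lay below every other library, and NC, P-ES50, ES50 and P each overlapped the next.

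Kif11 (chr1:256035866-256088299, +), the kinesin that pushes the spindle poles apart, measured 17.0, 16.1 and 15.8 FPKM in P, 18.8, 17.5 and 17.6 in P-ES10, and 19.7, 16.7 and 15.2 in P-ES50. Kif11 had 15.4, 15.9 and 15.1 FPKM in NC, 17.9, 16.3 and 17.2 in ES10, and 10.3, 9.15 and 9.90 in ES50. Its order had P-ES10 highest, which no other member showed, and ES50 apart at the bottom, and all groups above ES50 overlapped their neighbours. Kif20a (chr18:27424328-27432814, +), a kinesin of the central spindle needed for cytokinesis, stood at 27.3, 25.6 and 26.2 FPKM in P, 17.5, 16.6 and 16.3 in P-ES10, and 20.8, 19.1 and 19.3 in P-ES50. It stood at 20.8, 20.8 and 21.2 FPKM in NC, 16.3, 17.1 and 16.5 in ES10, and 20.5, 18.6 and 16.3 in ES50. P was apart from NC, the next group, and each later neighbour overlapped. Top2a (chr10:86901007-86932154, -), the topoisomerase that untangles sister chromatids, had 19.3, 20.8 and 21.0 FPKM in P, 18.2, 18.5 and 18.6 in P-ES10, and 19.7, 18.1 and 19.5 in P-ES50. Top2a measured 17.1, 17.98 and 17.9 FPKM in NC, 18.8, 17.6 and 17.4 in ES10, and 11.3, 12.3 and 10.1 in ES50. Only ES50 stood apart in its order, below all other libraries.

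**Figure D1:**
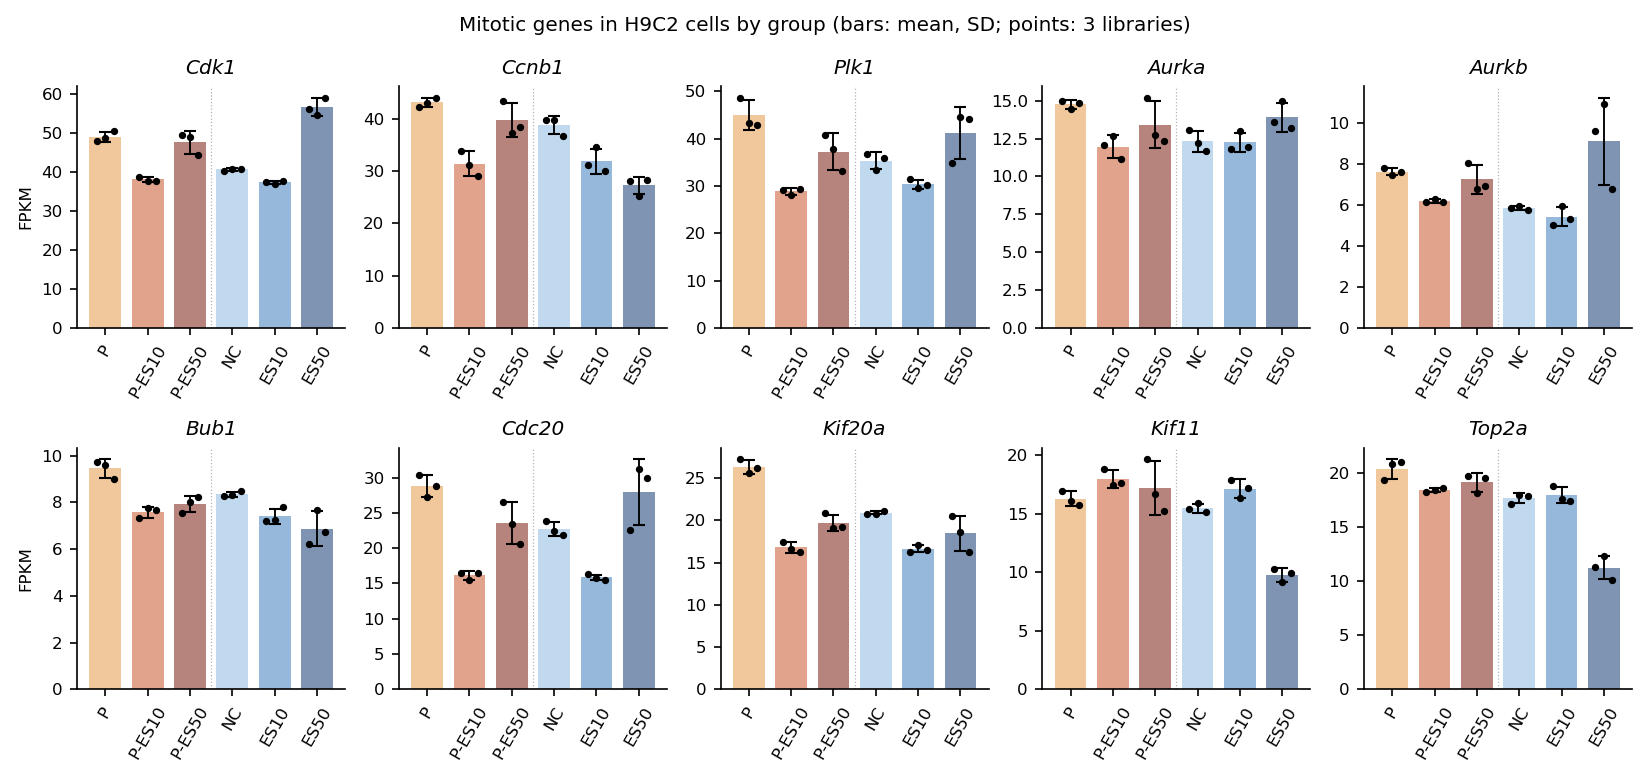
FPKM of the 10 mitotic genes by group (P, P-ES10, P-ES50, NC, ES10, ES50), 1 panel per gene, with a linear axis from 0. Bars are means, error bars SD over 3 libraries, and points single libraries. Kif11 and Top2a have their lowest bar in ES50 (9.78 ± 0.574 and 11.2 ± 1.09 FPKM), where Cdk1 has its highest (56.7 ± 2.27 FPKM). Scaled to total reads, however, all 10 are lower in ES50 than in NC, as is the median of all genes tested.

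PE without pulses came with higher levels of several of these genes. Of the 10, 3 rose in P against NC, where 4.72% of all 11917 genes tested rose, and none fell (limma, adjusted p under 0.05). Changes are log2 fold changes of FPKM plus 1 ± standard error, a scale on which low genes change less than they do in FPKM. Cdk1 rose by 0.27 ± 0.04 (limma, adjusted p = 0.0013), Kif20a by 0.32 ± 0.07 (adjusted p = 0.00607) and Plk1 by 0.34 ± 0.09 (adjusted p = 0.0271). The other 7 had positive values as well, up to 0.33 ± 0.10 for Cdc20 (adjusted p = 0.0548) and down to 0.07 ± 0.08 for Kif11. The median over the 10 was 0.25, beside 0.00 over all genes tested. In 9 of them every P library was above every NC library, which 22.0% of all genes tested showed in that direction, and Kif11 overlapped. Without the ES50 and P-ES50 libraries in the fit 8 of the 10 rose, as did 15.4% of all genes tested there. With every library thinned to the same number of nuclear reads none of the 10 was called in limma, and 1.05% of all genes tested rose, while Cdk1 stood at 0.23, Plk1 at 0.31 and Kif20a at 0.28. Scaled to total reads, which moved the median of all genes tested to 0.10, 9 rose, with 19.3% of all. Plk1 was called without P replicate 3 but not when any other library was left out.

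The 10 pulses after PE came with lower levels of most of them. Of the 10, 7 fell in P-ES10 against P, where 9.66% of all genes tested fell, and none rose. Cdc20 fell by 0.80 ± 0.10 (adjusted p = 4.32e-05), Plk1 by 0.62 ± 0.09 (adjusted p = 0.000121) and Kif20a by 0.62 ± 0.07 (adjusted p = 6.35e-06). Ccnb1 fell by 0.45 ± 0.07 and Cdk1 by 0.36 ± 0.04, with adjusted p of 0.000323 and 3.01e-05. Bub1 and Aurka each fell by 0.28, with adjusted p of 0.00673 and 0.0149, and the call of Aurka was lost without P replicate 1 or P-ES10 replicate 3. Aurkb, the passenger kinase, had -0.26 ± 0.12 (adjusted p = 0.128) and Top2a -0.14 ± 0.06 (adjusted p = 0.134). Kif11 was the exception in direction, at 0.13 ± 0.08 (adjusted p = 0.239). In 9 genes every P-ES10 library lay below every P library, as in 25.7% of all genes tested, and for Kif11 every P-ES10 library lay above, as in 27.2% of all. The median over the 10 was -0.32, beside 0.00 over all genes tested. Over the scalings, filters and models tried, Cdc20 ranged from -0.90 to -0.59, Plk1 from -0.72 to -0.61 and Kif20a from -0.72 to -0.62. With thinned reads the calls of Aurka and Bub1 were lost, at -0.16 and -0.24, and 3.57% of all genes tested fell.

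Without PE the same 10 pulses gave fewer calls. Of the 10, 3 fell in ES10 against NC, where 2.21% of all genes tested fell, and none rose. Cdc20 fell by 0.49 ± 0.10 (adjusted p = 0.00702), Kif20a by 0.31 ± 0.07 (adjusted p = 0.00681) and Ccnb1 by 0.28 ± 0.07 (adjusted p = 0.0254). Plk1 had -0.21 ± 0.09 (adjusted p = 0.18), Bub1 -0.15 ± 0.07 (adjusted p = 0.216) and Cdk1 -0.12 ± 0.04 (adjusted p = 0.122), and in all 3 every ES10 library lay below every NC library. Those 3, the 3 called genes and no other member were apart in that direction, as were 15.8% of all genes tested. Aurka, Aurkb and Top2a overlapped between the groups, and Kif11 was apart in the other direction, as were 23.9% of all genes tested, at 0.14 ± 0.08 (adjusted p = 0.339). The call of Ccnb1 was lost without NC replicate 1 or 2 and without ES10 replicate 1 or 3. With the ES50 and P-ES50 libraries out of the fit 6 of the 10 fell and 1 rose, beside 8.53% and 15.8% of all genes tested. With thinned reads 1 fell, beside 0.490% of all.

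The 3 members that fell without PE are among the 7 that fell with it, and whether the response differed was asked by the interaction, the change with 10 pulses after PE minus that without. All 10 values were below 0, from -0.41 ± 0.13 for Plk1 to -0.01 ± 0.11 for Kif11, with a median of -0.20. Of all 11917 genes tested, 6244 were below 0. None of the 10 passed the threshold in limma, where 0.906% of all genes tested did. An unadjusted p under 0.05 was found for 5 members, and for 988 of all 11917 genes tested. The 5 members were Cdk1 at -0.24 ± 0.06, Kif20a at -0.31 ± 0.09, Plk1, Aurka at -0.27 ± 0.11 and Cdc20 at -0.31 ± 0.14. Limma with voom weights on the recovered reads called 3, beside 6.61% of all genes tested, and the fit without the ES50 and P-ES50 libraries called 4, beside 5.82%. The P and NC libraries enter this difference and the comparison of P with NC alike, so the values are not independent of each other.

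After 10 pulses no difference between the cells with and without PE was detected in the members. In P-ES10 against ES10, a comparison added after the data were seen, none of the 10 passed in limma, where 1.80% of all genes tested did. None had an unadjusted p under 0.05, which 1361 of all 11917 genes tested had. Limma with voom weights also called none. The values ran from -0.07 ± 0.09 for Plk1 to 0.16 ± 0.12 for Aurkb. For Cdk1 the 95% interval was -0.07 to 0.12, and for Cdc20 it was -0.20 to 0.24. The interval of Aurkb, from -0.09 to 0.42, was the widest of the 10.

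**Figure D2:**
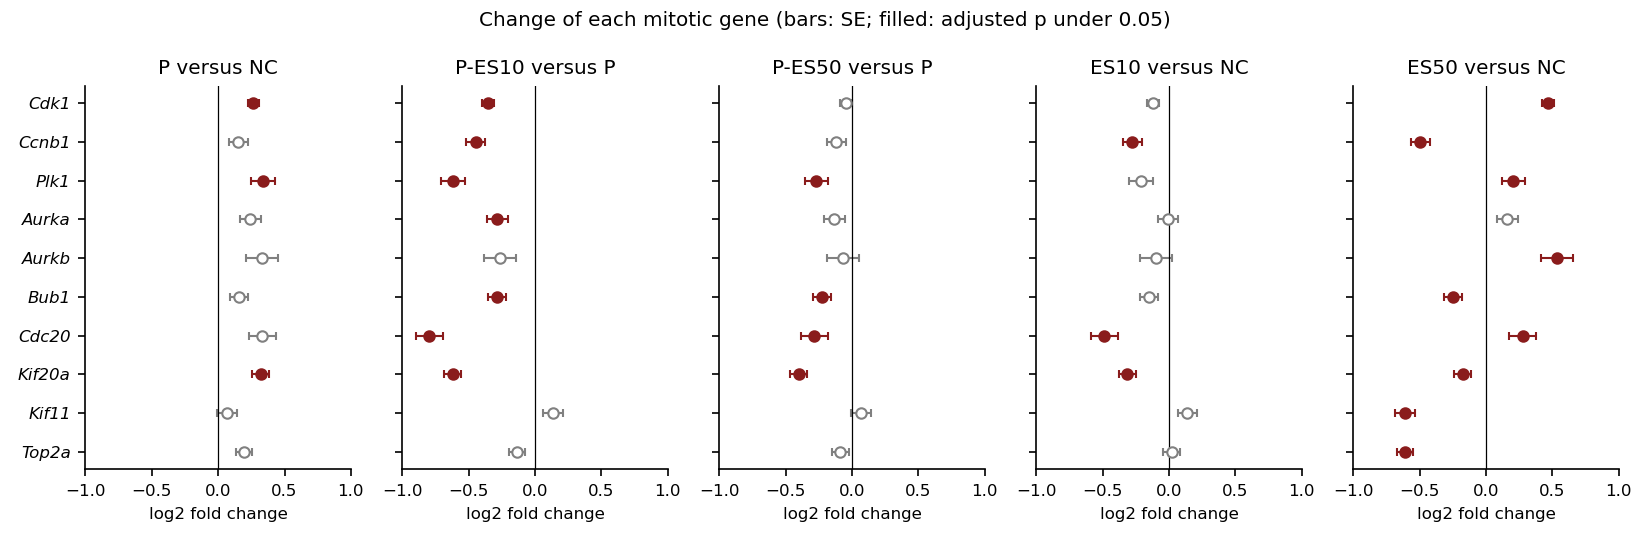
Log2 fold change of FPKM plus 1 for the 10 mitotic genes in 5 comparisons, with P, P-ES10 and P-ES50 set against their control and ES10 and ES50 against NC; points are limma estimates, filled where the adjusted p is under 0.05, and bars are standard errors. In P-ES10 versus P all genes but Kif11 lie below 0. In ES50 versus NC they lie on both sides, from -0.61 for Kif11 and Top2a to 0.54 for Aurkb. Scaled to total reads all 10 lie below 0 in ES50 versus NC, as does the median of all genes tested.

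After 50 pulses without PE the members lay on both sides of the control. Relative to the median gene, 4 of the 10 were higher and 5 lower in ES50 than in NC, where 31.9% of all genes tested were higher and 40.1% lower. Cdk1 was higher by 0.47 ± 0.04 (adjusted p = 1.13e-07), Aurkb by 0.54 ± 0.12, Cdc20 by 0.28 ± 0.10 and Plk1 by 0.21 ± 0.09. Scaled to total reads these 4 reversed, to -2.92 for Cdk1, -2.23 for Aurkb, -2.96 for Cdc20 and -3.13 for Plk1, and after quantile normalization Plk1 was at -0.019. Top2a was lower by 0.61 ± 0.06 (adjusted p = 2.63e-07), Kif11 by 0.61 ± 0.08 (adjusted p = 2.55e-06) and Ccnb1 by 0.50 ± 0.07 (adjusted p = 1.48e-05). Bub1 and Kif20a were lower by 0.25 and 0.18, with adjusted p of 0.00367 and 0.0241. Aurka was at 0.16 ± 0.08 (adjusted p = 0.0724), and at -2.84 scaled to total reads. With total reads as the scale all 10 were called lower, the median of all genes tested being -2.36 on that scale. The call of Plk1 was lost when any library but ES50 replicate 1 was left out, that of Cdc20 without replicate 2 or 3 of either group, and that of Kif20a without replicate 3 of either group. The calls rest on few reads, since the 3 ES50 libraries together held 224 reads for Bub1, 237 for Aurka, 291 for Aurkb and 667 for Plk1. The mitochondrial share of reads moved with this comparison, and so did markers of other cell types on the deposited scale. All 5 tested fibroblast markers were lower, with a median of -1.08, and the 7 in the table summed to 547 to 574 FPKM in ES50, against 2380 to 2466 in NC. The 3 tested leukocyte markers were lower and the 3 tested skeletal myoblast markers higher. Of 5 tested cardiomyocyte markers 2 were higher and 2 lower, and the 12 in the table summed to 51.3 to 59.9 FPKM in ES50, against 19.4 to 21.02 in NC. After quantile normalization 4 fibroblast and 1 leukocyte marker were called lower, and scaled to total reads every tested marker of these 4 lists was called lower. The part of these moves in the members' values was not tested.

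From 10 to 50 pulses without PE, 4 of the 10 were higher in ES50 than in ES10 (33.0% of all genes tested) and 3 lower (41.3%). Cdc20 was higher by 0.77 ± 0.10 (adjusted p = 5.69e-06), Aurkb by 0.63 ± 0.12, Cdk1 by 0.59 ± 0.04 and Plk1 by 0.42 ± 0.09. These 4 too were below 0 when scaled to total reads, between -2.87 for Plk1 and -2.09 for Aurkb, as was the median of all genes tested. Kif11 was lower by 0.75 ± 0.08 (adjusted p = 2.27e-07), Top2a by 0.63 ± 0.06 and Ccnb1 by 0.22 ± 0.07 (limma, adjusted p = 0.0125). The call of Ccnb1 was lost without ES10 replicate 2 or ES50 replicate 2.

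After PE, the 50 pulses came with lower levels of fewer members, with a median over the 10 of -0.13. Of the 10, 4 were lower in P-ES50 than in P, where 14.2% of all genes tested were lower, and none was higher. Kif20a was lower by 0.40 ± 0.07 (adjusted p = 0.00031), Cdc20 by 0.29 ± 0.10 (adjusted p = 0.0486), Plk1 by 0.27 ± 0.09 (adjusted p = 0.034) and Bub1 by 0.23 ± 0.07 (adjusted p = 0.0202). Kif11 had 0.07 ± 0.08, which became -0.79 with total reads as the scale, on which all 10 were lower and the median of all genes tested was -0.75. The number called was 1 without P replicate 1 or 2 and 2 without P-ES50 replicate 2 or 3. Against P-ES10, 5 of the 10 were higher in P-ES50, where 10.5% of all genes tested were higher, and none was lower. Cdc20 was higher by 0.51 ± 0.10 (adjusted p = 0.00178), Plk1 by 0.35 ± 0.09, Ccnb1 by 0.33 ± 0.07, Cdk1 by 0.31 ± 0.04 and Kif20a by 0.22 ± 0.07. Scaled to total reads these 5 were lower instead, from -0.55 for Kif20a to -0.26 for Cdc20, as was the median of all genes tested, at -0.69. Without P-ES50 replicate 1, which had the highest value of its group in every member but Bub1, 3 were called, and Plk1 and Kif20a were not. The call of Kif20a was also lost without P-ES10 replicate 2 or 3.

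The response to 50 pulses differed with PE for 9 of the 10, where 59.0% of all genes tested differed. The change after PE minus that without was positive for Kif11 (0.68 ± 0.11), Top2a (0.53 ± 0.09) and Ccnb1 (0.37 ± 0.10), the 3 members with the lowest values in ES50 versus NC. It was negative for Aurkb (-0.60 ± 0.17), Cdc20 (-0.56 ± 0.14), Cdk1 (-0.51 ± 0.06), Plk1 (-0.47 ± 0.13), Aurka (-0.29 ± 0.11) and Kif20a (-0.22 ± 0.09). With total reads as the scale all 10 were positive, as was the median of all genes tested. Bub1 had 0.02 ± 0.10 (adjusted p = 0.854). The call of Kif20a was lost when any of 10 of the 12 libraries was left out and that of Aurka when any of 7 was.

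Over the wider set of mitotic genes, gene length ran against the values wherever a 50-pulse group was compared with another group, though not always over the 10. The length in the deposited table was 1411 bases for Cdk1, 1606 for Ccnb1, 1774 for Cdc20 and 2237 for Plk1 at the short end, and 4404 for Aurkb, 4493 for Bub1, 4731 for Kif11 and 5589 for Top2a at the long end. Across the 10 genes the Spearman correlation of the change in ES50 versus NC with length was -0.55, and Ccnb1, which is short and low, and Aurkb, which is long and high, lay off it. Over the 85 mitotic genes tested, the 10 included, it was -0.50, and over all 11917 genes -0.25. Mitotic genes under 2000 bases had a median of 0.45 (18 genes), those of 2000 to 4000 bases -0.03 (42 genes), and those of 4000 bases or more -0.31 (25 genes), beside 0.21, -0.20 and -0.56 over all genes tested. In P-ES50 versus P-ES10 the correlation was -0.84 over the 10 and -0.53 over the 85, whereas in P-ES50 versus P it was 0.19 over the 10 and -0.31 over the 85. Over all genes tested it was -0.19 in P-ES50 versus P-ES10 and -0.18 in P-ES50 versus P. With 10 pulses it was 0.68 over the 10, 0.22 over the 85 and -0.02 over all genes tested in P-ES10 versus P. In ES10 versus NC it was 0.60, 0.19 and 0.06. Genes in 1 comparison share their libraries, so these are descriptions, and the part of length in the members' changes was not tested.

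**Figure D3:**
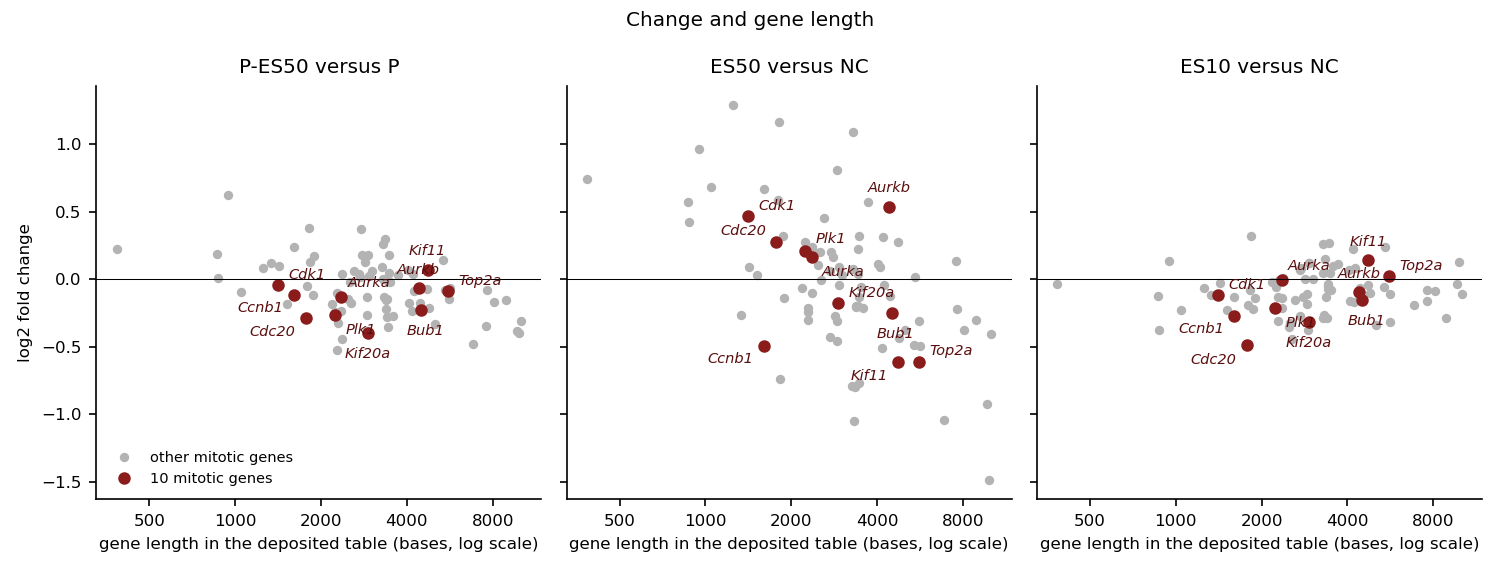
Log2 fold change of FPKM plus 1 against gene length in the deposited table (bases, log scale) for the 10 mitotic genes (red) and 75 other mitotic genes (grey) in P-ES50 versus P, ES50 versus NC and ES10 versus NC. In ES50 versus NC values decline with length (Spearman correlation -0.50 over the 85 genes), with Kif11 and Top2a at -0.61 on the long side; in P-ES50 versus P the correlation is -0.31 over the 85 and 0.19 over the 10.

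A wider list of 80 mitotic genes was set beside the 10, of which 76 were in the table and 75 were tested. In P against NC 7 of the 75 rose and 2 fell, beside 4.72% and 4.81% of all genes tested, with a median of 0.14. The 2 that fell were Ube2s (-0.23 ± 0.05) and Cdc27 (-0.27 ± 0.08). Kif22, a chromosome-bound kinesin (0.38 ± 0.06), Kif2c, which takes microtubules apart (0.37 ± 0.10), Tacc3 of the spindle (0.38 ± 0.10) and Incenp, the scaffold that holds Aurora B (0.31 ± 0.06), rose. The number called was 4 to 7 when 1 library was left out and 35 without the ES50 and P-ES50 libraries in the fit, where 30.0% of all genes tested were called. In P-ES10 against P 27 of the 75 fell and 4 rose, with a median of -0.20. Of all genes tested 9.66% fell and 13.2% rose, the shares to set beside the counts by role that follow. Of 18 spindle and motor genes 9 fell, among them Ckap2 (-0.69 ± 0.09), Kif2c (-0.66 ± 0.10), Kif22 (-0.45 ± 0.06) and Tpx2, the activator of Aurora A (-0.42 ± 0.08). All 3 partners of Aurkb in the passenger complex fell, Birc5 (-0.46 ± 0.10), Cdca8 (-0.38 ± 0.08) and Incenp (-0.23 ± 0.06). Of 11 genes of the anaphase-promoting complex and its targets 6 fell, among them Pttg1, which is securin (-0.52 ± 0.09), and Fzr1, the other activator besides Cdc20 (-0.45 ± 0.05), while the ligase partner Ube2s rose (0.45 ± 0.05). Among 11 genes around Cdk1, cyclin A2 (Ccna2, -0.32 ± 0.07), the activating phosphatase Cdc25b (-0.39 ± 0.09) and Foxm1, which turns on mitotic genes (-0.42 ± 0.11), fell, and Wee1, which inhibits Cdk1, rose (0.44 ± 0.08). Kinetochore genes fell in 3 of 9, with Cenpf (-0.32 ± 0.07), Nuf2 (-0.30 ± 0.07) and Cenpe (-0.21 ± 0.07). Of 7 checkpoint genes Ttk (-0.48 ± 0.12) and Bub1b (-0.40 ± 0.13) fell and Zwint rose (0.43 ± 0.10). Of 8 cytokinesis genes 1 fell and 1 rose. None of 8 condensin and chromatin genes passed in limma, the list Top2a is closest to in role. Of these 8, 1 had an unadjusted p under 0.05, as had 3999 of all 11917 genes tested.

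In ES10 against NC 8 of the 75 fell and 2 rose, beside 2.21% and 6.36% of all genes tested, with a median of -0.08. Ckap2 (-0.44 ± 0.09), Kif2c (-0.38 ± 0.10), Birc5 (-0.38 ± 0.10) and Tpx2 (-0.29 ± 0.08) were among those that fell. The 2 that rose were Ncapd2 of the condensin list (0.22 ± 0.05) and Anln of the cytokinesis list (0.27 ± 0.07). Without any 1 of the 6 libraries 3 of the 75 were called, and 26 were called without the ES50 and P-ES50 libraries in the fit, beside 24.4% of all genes tested. For the interaction with PE 1 of the 75 passed, Ube2s at 0.31 ± 0.07, beside 0.906% of all genes tested. In ES50 against NC 20 of the 75 were higher and 26 lower, smaller shares than the 31.9% and 40.1% of all genes tested. Among them, Stmn1 (1.16 ± 0.04) and Spc25 (1.29 ± 0.11) were higher. Mki67, the proliferation marker (-1.49 ± 0.09), and Aspm (-0.93 ± 0.12) were lower. Scaled to total reads all 75 were lower, as was the median of all genes tested. In P-ES50 against P-ES10 19 were higher and 4 lower, beside 10.5% and 12.9% of all genes tested, with Cdc25b at 0.57 ± 0.09 and Nuf2 at 0.47 ± 0.07. With total reads as the scale 74 were lower, as was the median of all genes tested.

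A list of arrest genes was also set beside the 10, and it includes Tfdp1, Lin9 and Lin54, regulators that are not confined to arrest. Of its 22 tested genes, 7 rose and 1 fell in P-ES10 against P. In ES10 against NC 4 rose and 1 fell, and in P against NC 3 rose and 8 fell. Of all genes tested 13.2% rose and 9.66% fell in the first of these comparisons, 6.36% and 2.21% in the second, and 4.72% and 4.81% in the third. Gadd45a, which can hold Cdk1 in check, rose by 1.11 ± 0.05 in P-ES10 against P and by 0.53 ± 0.05 in ES10 against NC, and fell by 0.66 ± 0.05 in P against NC. Plk2, a stress-induced relative of Plk1, rose by 0.92 ± 0.04 and 0.54 ± 0.04 in the pulse comparisons and fell by 0.27 ± 0.04 in P against NC. Ccng1 also rose in ES10 against NC (0.22 ± 0.03) and fell in P against NC (-0.31 ± 0.03). Some other called genes of the list did not share these signs. Cdkn1b fell in ES10 against NC (-0.25 ± 0.06) and in P against NC (-0.33 ± 0.06). Gadd45b rose in both, by 0.21 ± 0.04 and 0.20 ± 0.04. Tfdp1 was among the 3 that rose in P against NC (0.17 ± 0.05). P libraries are shared by P-ES10 versus P and P versus NC, and NC libraries by P versus NC and ES10 versus NC. The opposite signs of Gadd45a, Plk2 and Ccng1 are therefore not independent. Of 28 S phase genes 6 rose and 1 fell in P-ES10 against P, with Pcna, the clamp of DNA replication, at 0.53 ± 0.05 and Mcm4 of the replicative helicase at 0.46 ± 0.08. In ES10 against NC 1 of the 28 rose, Pcna at 0.35 ± 0.05, and none fell. The muscle regulator Myod1 was the 1 of 3 tested skeletal myoblast markers that rose in both comparisons, by 1.24 ± 0.06 and 0.89 ± 0.06. The other 2 were not called, Myog at -0.15 ± 0.24 and -0.56 ± 0.24 and Des at 0.14 ± 0.09 and -0.04 ± 0.09. The 8 markers of that list summed to 65.3 to 66.7 FPKM in P-ES10, against 30.5 to 35.1 in P, and to 68.2 to 71.7 in ES10, against 41.9 to 43.9 in NC. Of 3 tested leukocyte markers Csf1r rose in both, by 0.92 ± 0.12 and 0.74 ± 0.12, and Cd14 fell in P-ES10 against P, by 0.79 ± 0.15. In P-ES10 against P the cardiomyocyte markers Pln (0.78 ± 0.18) and Tnnt2 (0.36 ± 0.12) rose and Nppb (-0.64 ± 0.16) fell, and the fibroblast markers Col1a2 (1.12 ± 0.26) and Col3a1 (0.17 ± 0.04) rose and Col1a1 (-0.14 ± 0.03) fell. Scaled to nuclear reads or after quantile normalization 1 fibroblast marker rose and 2 fell. None of the 5 cardiomyocyte and 5 fibroblast markers was called in ES10 against NC in limma. An unadjusted p under 0.05 was found for 0 and 2 of them, and for 2413 of all 11917 genes tested. The part of these markers in the members' changes was not tested.

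**Figure D4:**
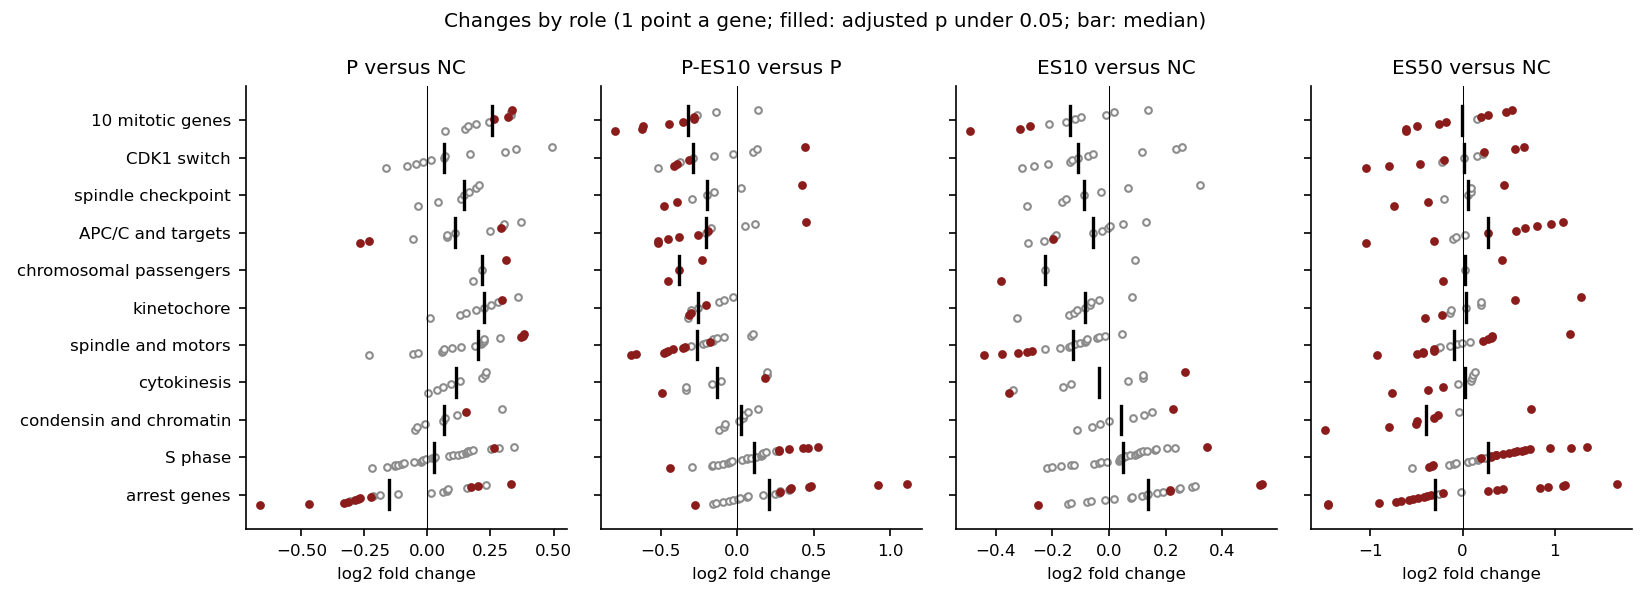
Log2 fold change of FPKM plus 1 of each tested gene of the mitotic, arrest and S phase lists in P versus NC, P-ES10 versus P, ES10 versus NC and ES50 versus NC; each point is a gene, filled where the adjusted p is under 0.05, and short bars are medians. In P-ES10 versus P the 10 members have a median of -0.32 and the 22 tested genes of the arrest list one of 0.21.

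The members varied together outside ES50. Over the 15 libraries without ES50 the 45 pairs had a median Pearson correlation of 0.75 on the log2 scale, and 6 pairs were below 0. Over all 18 libraries the median was 0.40 and 14 pairs were below 0. Kif11 stood apart in both, with a correlation of -0.07 with the mean of the members over 15 libraries and 0.06 over 18, although it is itself part of that mean. Over the 15 libraries Plk1 (0.94), Cdc20 (0.94) and Cdk1 (0.94) were closest to the mean. Of the genes outside all lists, Lmnb2, which encodes lamin B2 of the nuclear envelope, was most alike in both sets, at 0.97 over 15 libraries and 0.95 over 18. Psme2 (0.97), Cep85 (0.95), Troap (0.95) and Cenpt (0.95) followed over 15 libraries, and Anapc7 (0.93), Tubb4b (0.92), Mmd (0.91) and Cenpt (0.90) over 18. Libraries of a group share its treatment, so these are descriptions of how the groups are ordered.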

How the data were processed

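The 18 libraries of H9C2 RNA form 6 groups of 3, named by the sample titles. Libraries were made from 1 µg of RNA with poly-T beads and random hexamer priming, per the labels' protocols. The authors deposited FPKM per gene with gene positions and lengths, on Rnor 6.0 per the submitters' processing notes. No source used here gives the aligner, counting tool, annotation release or strandedness. Since FPKM times length came in whole steps within each library (100% of genes within 0.01 of a read), reads were recovered from it.

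Tested were genes that reached 1 FPKM in 3 or more libraries (11917 of 32545, with all 10 members). Values were log2(FPKM + 1), fitted with limma 3.58.1 in R 4.3.3 as 6 group means over all 18 libraries with a mean-variance trend. The spread is pooled over all groups, so the noisier ES50 libraries enter every error. Within each comparison the p-values of all genes tested had a Benjamini-Hochberg adjustment, and an adjusted p under 0.05 was called. With 3 libraries a group, an exact permutation test cannot go below p = 0.1, so none was used. Same-numbered libraries were not paired by the labels, and the closing section gives that check.

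The members and lists were chosen with earlier results of these data known. Named are all 10 members, up to 4 genes per list by smallest adjusted p, and the 5 genes outside the lists whose log2 level correlates best with the members' mean, over 18 and over 15 libraries. Casc5 and Sgol1 are the table's symbols for listed genes, and Ccnb2 and Cks2 were not matched. Alternatives were another pseudocount (0.1), no filter, other scalings, fits on fewer libraries, a replicate block, thinned reads and, added after the data were seen, voom of limma on the recovered reads. Python 3.11.15, pandas 2.3.3 and matplotlib 3.10.9 were used for tables and plots. Promoter sequences are from RefSeq (GRCr8), and no coordinates were converted between builds.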

Additional observations from a re-analysis of the deposited data

Results flagged for a closer look

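For 9 of the 10 genes the response to 50 pulses differed with PE, by limma's test of the difference (the change in P-ES50 versus P minus that in ES50 versus NC). The difference was 0.68 for Kif11, 0.53 for Top2a and 0.37 for Ccnb1, whose levels were lower in ES50 than in NC without a called change in P-ES50 versus P. It was -0.60 for Aurkb, -0.56 for Cdc20, -0.51 for Cdk1, -0.47 for Plk1, -0.29 for Aurka and -0.22 for Kif20a. These 6 negative values reverse when values are scaled to total reads, to 1.34 for Aurkb, 1.80 for Cdc20, 1.99 for Cdk1, 1.97 for Plk1, 1.86 for Aurka and 2.03 for Kif20a, where the median of all genes tested is 1.58. Over all genes tested 59.0% differed as well.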

How the results depend on the processing

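ES50 libraries held 1230554 to 1466851 nuclear reads, which limits the comparisons with ES50. Counts below are of the 10 members and of the 75 other mitotic genes.

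Scaled to total reads, 27 single-gene values reversed. In ES50 versus NC they were Cdk1 -2.92, Cdc20 -2.96, Plk1 -3.13, Aurka -2.84 and Aurkb -2.23, and in ES50 versus ES10 Cdk1 -2.76, Cdc20 -2.43, Plk1 -2.87, Kif20a -2.94, Aurka -2.80 and Aurkb -2.09. In P-ES50 versus P-ES10 they were Cdk1 -0.48, Ccnb1 -0.46, Cdc20 -0.26, Plk1 -0.44, Kif20a -0.55, Aurka -0.61, Aurkb -0.52, Bub1 -0.68 and Top2a -0.73, and in P-ES50 versus P Kif11 -0.79. In the interaction of PE and 50 pulses they were Cdk1 1.99, Cdc20 1.80, Plk1 1.97, Kif20a 2.03, Aurka 1.86 and Aurkb 1.34. After quantile normalization Plk1 reversed in ES50 versus NC, to -0.019. In the comparisons in which total reads reversed a value, the median of all genes tested moved to -2.36, -2.33, -0.69, -0.75 and 1.58. The cause of the reversals was not tested.

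Scaled to total reads, the members called became 9 in P versus NC, 10 in P-ES50 versus P and versus P-ES10, and 1 in the interaction of PE and 10 pulses, while 23.7%, 86.6%, 85.6% and 2.04% of all genes tested were called. The other mitotic genes called became 18 in ES10 versus NC, 75 in ES50 versus NC and versus ES10, 40 in P versus NC, 51 in P-ES10 versus P, 75 in P-ES50 versus P, 74 in P-ES50 versus P-ES10, 3 and 75 in the interactions with 10 and 50 pulses, and 2 in P-ES10 versus ES10. No share over all genes tested is given on this scale for the comparisons not named with the members. Their counts show only how the calls depend on the scale. Scaled to nuclear reads, 6 members were called in ES10 versus NC, with 7.34% of all genes. After quantile normalization 5 members and 16 others were called in ES10 versus NC, and 6 and 18 in P versus NC, with 10.3% and 13.8% of all genes.

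Fitted on the compared groups alone, 5 members and 22 others were called in ES10 versus NC, 5 and 29 in ES50 versus NC, 9 and 26 in P versus NC, and 4 and 6 in the interaction with 10 pulses, with 18.8%, 59.3%, 22.9% and 5.82% of all genes tested. In that fit 2 members were called in P-ES50 versus P and 1 other gene in P-ES10 versus ES10, with 35.4% and 7.36% of all. Without ES50 and P-ES50 in the fit, 7 and 26 were called in ES10 versus NC, 8 and 35 in P versus NC, 4 and 6 in the interaction with 10 pulses, 47 others in P-ES10 versus P and 3 others in P-ES10 versus ES10, with 24.4%, 30.0%, 5.82%, 42.8% and 11.1% of all genes tested. With voom on recovered reads, added after the data were seen, 5 and 24 were called in ES10 versus NC, 8 and 39 in P versus NC, 3 and 5 in the interaction with 10 pulses, and 5 members in ES50 versus NC, with 23.8%, 29.6%, 6.61% and 63.9% of all. Voom also called 49 others in P-ES10 versus P, 39 in P-ES50 versus P-ES10 and 4 in P-ES10 versus ES10, with 42.7%, 37.0% and 11.4% of all. With reads thinned to the nuclear reads of the smallest library, 1 member and 0 others were called in ES10 versus NC, 0 and 2 in P versus NC, 1 and 8 in P-ES50 versus P, 2 and 12 in P-ES50 versus P-ES10, 15 others in P-ES10 versus P and 0 in the interaction with 10 pulses, with 2.29%, 2.38%, 12.4%, 9.41%, 9.79% and 0.310% of all genes tested. Without a filter 2 members were called in P-ES50 versus P, and of the others 6 in ES10 versus NC and 0 in the interaction with 10 pulses, with 14.4%, 4.37% and 0.507% of all. The cause of these moves was not tested.

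Leaving out each library in turn gave 2 to 3 members in ES10 versus NC, 6 to 9 in ES50 versus NC, 7 to 9 in ES50 versus ES10, 2 to 3 in P versus NC, 6 to 7 in P-ES10 versus P, 1 to 4 in P-ES50 versus P, 3 to 5 in P-ES50 versus P-ES10, 7 to 9 in the interaction with 50 pulses, and 0 in the interaction with 10 pulses and in P-ES10 versus ES10. For the others it gave 3 in ES10 versus NC, 42 to 51 in ES50 versus NC, 40 to 47 in ES50 versus ES10, 4 to 7 in P versus NC, 25 to 26 in P-ES10 versus P, 16 to 21 in P-ES50 versus P, 18 to 22 in P-ES50 versus P-ES10, 0 to 1 and 28 to 37 in the interactions with 10 and 50 pulses, and 0 in P-ES10 versus ES10. No share over all genes tested is given for these fits, so the ranges show only how the calls depend on single libraries.

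With the replicate block 3 members were called in ES10 versus NC, 3 in P versus NC, 7 in P-ES10 versus P, 3 in P-ES50 versus P, 5 in P-ES50 versus P-ES10, 8 in ES50 versus NC and 8 in ES50 versus ES10. No share over all genes tested is given for that fit, so these counts show only how the calls depend on the model. Same-numbered libraries of 2 groups correlated between -0.09 and 0.10 in their deviations from the group means, so no strong effect shared by number was seen. This check cannot tell whether same-numbered libraries were cultured or processed together. A planned edgeR test on recovered reads was not run, and voom on the same reads was added in its place.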
